A study of Mus musculus with 16 samples.

Results

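The endoplasmic reticulum (ER) chaperone and stress genes are a set of 32 genes that act in the folding of secreted and membrane proteins and in the response to its failure. They were chosen by name from knowledge of the pathway, with earlier results of these data known. Shares of members set beside shares of all genes are therefore a description. Every probe of the array annotated to these genes by Entrez identifier was used. Of the 32 genes, 31 had an annotated probe (53 of the 45281 probes), and 24 genes were measured through 33 probes detected on at least 8 of the 16 arrays. All 33 were in fact detected on all 16 arrays. The array annotation names 19057 genes in all, of which 10624 were measured.

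Total RNA came from mouse brain at embryonic day 18 and was labelled with biotin as cRNA. The samples were 8 HeCo mutants and 8 wild-type controls, both of the strain NOR/CD-1. The HeCo line has a mutated Eml1, whose product binds microtubules, and its cortex contains neurons in ectopic positions (heterotopia). The question addressed here is whether ER genes differ in level between the genotypes. The labels name neither the part of the brain nor the sex, and they do not say whether each array is a separate animal or a pool, so the p-values measure only the spread between these samples. Arrays are called by genotype and the number in the sample title. Titles 1 to 8 and 9 to 16 each hold 4 arrays of each genotype, as do the separate description numbers 1 to 8 and 9 to 16, and values within these sets are given where they matter. The labels do not say what either number stands for.

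As background, proteins that enter the ER are folded by the chaperone BiP (Hspa5) and its cofactors, by the lectins calnexin and calreticulin and by disulphide isomerases, while proteins that fail to fold are returned to the cytosol and degraded. When unfolded proteins build up, the membrane sensors IRE1 (Ern1), PERK (Eif2ak3) and ATF6 start the unfolded protein response. IRE1 and ATF6 act through the transcription factors XBP1 and ATF6 on chaperone genes, and PERK acts through ATF4 and CHOP (Ddit3) on amino acid, redox and feedback genes. In developing cortex, PERK signalling is known to influence how progenitors produce neurons.

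The mean deposited signal per array ran from 374.9 to 597.9, and 17694 to 19553 probes were detected per array. Both probes of Eml1 separated the genotypes. ILMN_1214866 lay between 8.23 and 8.71 on the normalized log2 scale in wild type and between 4.40 and 4.67 in HeCo, where it was detected on 0 of 8 arrays. The reverse held for ILMN_3137207, with 8 of 8 HeCo arrays and 0 of 8 wild-type arrays above the detection limit. Of 6 neuron markers 5 were measured, and the probe of Snap25 was detected on no array. Among 6 liver genes listed, Alb, Afp and Ahsg were also detected on no array, and Serpina1a was not measured. The other 2 were measured, Ttr, which is also a choroid plexus marker, and Apoa1. Apoa1 had normalized log2 means of 6.84 in wild type and 6.47 in HeCo. On HeCo 7 and HeCo 16, markers of the diencephalon, midbrain and hindbrain differed from their wild-type mean by -2.64 and -2.26, against -0.27 to 0.10 on the other HeCo arrays. In whole tissue, fewer cells of a type and less RNA per cell cannot be told apart.

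No ER gene differed between HeCo and wild type past the threshold of an adjusted p of 0.05. By limma, 0 of 24 measured members were called over all genes (percentage called among all genes, 0.0565%), and 0 of the 33 probes were called over all probes (0.0863%). The smallest adjusted p of a member was 0.299, for Dnajc3. At an unadjusted p under 0.05 there were 4 members, Dnajc3, Pdia6, Hsp90b1 and Xbp1, all with a higher mean in HeCo. That is 16.7% of the measured members, while 7.05% of all genes had such a p, 3.74% with a higher and 3.31% with a lower mean in HeCo. There were 2 such members without HeCo 6, wild type 2 or wild type 10 (8.33%, against 6.61%, 6.26% and 5.24% of all genes) and 6 without HeCo 15 (25%, against 6.21%). There were 7 with array weights (29.2%, against 6.17%), and 1 within description numbers 9 to 16 or title numbers 1 to 8 (4.17%, against 2.48% and 3.14%). For 0 of 24 members did the arrays of the groups separate fully, as they did for 0.113% of all genes. In all, 15 members had a higher and 9 a lower mean in HeCo, with a median difference of 0.0425 on the log2 scale, against -0.00515 over all genes, of which 48.1% were higher. With single arrays left out this median ran from 0.011 (without HeCo 13) to 0.060 (without HeCo 15). It was 0.018 without HeCo 14, 0.022 without wild type 4, 0.027 without HeCo 16 or wild type 9 and 0.024 without wild type 11, and 13 members were higher and 11 lower without wild type 2, wild type 10 or wild type 11. The 95% confidence intervals of the 24 differences reached from -0.39 at the lowest to 0.41 at the highest.

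**Figure D1:**
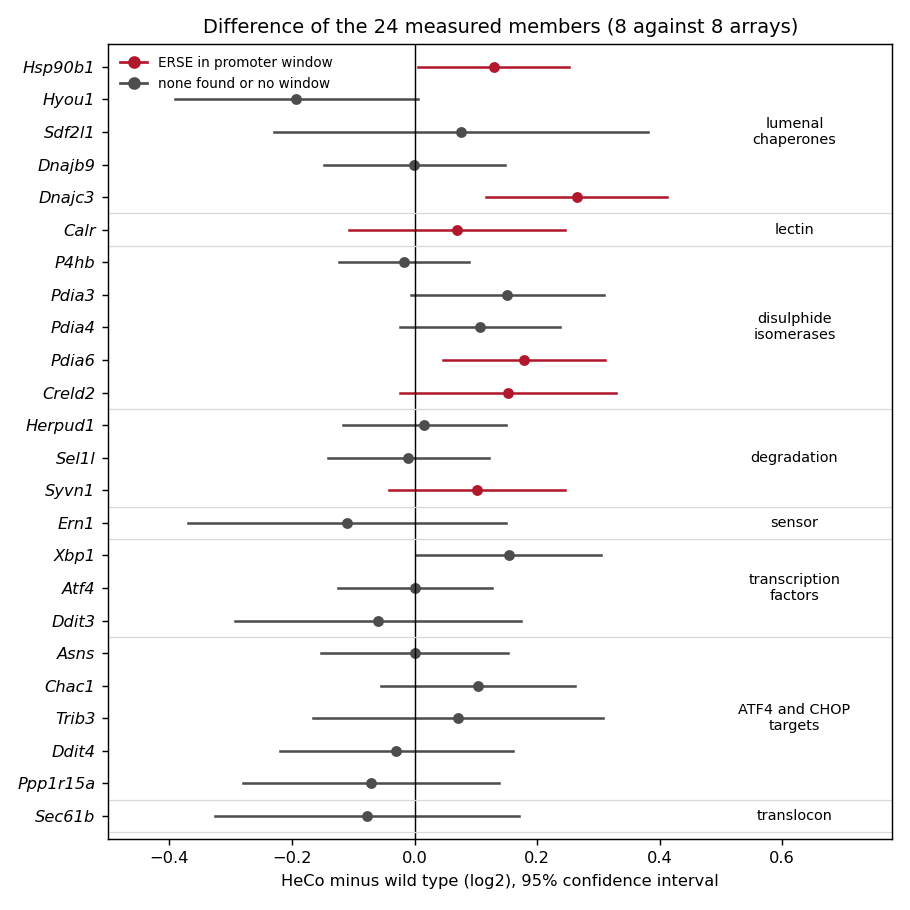
Difference between HeCo and wild type for each of the 24 measured members, in log2 units, with 95% confidence intervals from the limma fit over 8 against 8 arrays, grouped by role. Red marks genes with an ER stress element (ERSE) in the promoter window. Grey marks genes with none found or, for Hyou1, no window. The 6 red points lie between 0.07 and 0.26, and the grey points on both sides of 0.

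The Hsp70 and Hsp90 chaperones of the ER lumen and their cofactors held both the highest and the lowest difference of the set. Of 8 genes 5 were measured, 3 with a higher and 2 with a lower mean in HeCo, and their median difference was 0.08. Dnajc3 encodes P58IPK, a J-domain cofactor of BiP in the ER lumen that is also known to inhibit PERK. Its normalized log2 signal had a lowest, median and highest value of 7.14, 7.27 and 7.45 in wild type and of 7.31, 7.56 and 7.69 in HeCo. Of the HeCo arrays 7 of 8 lay above the highest wild-type array, and HeCo 6 fell among the wild-type values. The wild-type mean was 7.29 ± 0.11 and the HeCo mean 7.55 ± 0.11 (SD, n = 8 each), a 1.20-fold difference (log2 0.26, SE 0.07, 95% interval 0.12 to 0.41, limma adjusted p = 0.299). The difference was 0.17 and 0.36 within title numbers 1 to 8 and 9 to 16, and 0.26 without HeCo 7 and HeCo 16. The other Dnajc3 probe was detected on 0 of 16 arrays.

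Hsp90b1, which encodes the Hsp90 of the ER lumen (GRP94), was less spread in HeCo than in wild type. Its values were 10.76, 10.88 and 11.10 in wild type and 10.94, 11.03 and 11.10 in HeCo as lowest, median and highest. Every HeCo array exceeded the wild-type mean of 10.90, but wild type 1, wild type 11 and wild type 12 lay among the HeCo values and only HeCo 15 exceeded wild type 1. The log2 difference was 0.13 (SE 0.06, limma adjusted p = 0.692). Hyou1, an Hsp110-like nucleotide exchange factor of BiP, was dim and had the lowest difference of the set, -0.19 (SE 0.10, limma adjusted p = 0.715). Its values ran from 5.41 to 6.06 in wild type and from 5.24 to 5.68 in HeCo, with medians of 5.60 and 5.48. Wild type 10 lay apart above all others, and 3 of 8 HeCo arrays lay below the lowest wild-type array.

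Sdf2l1, a BiP cofactor of the ER lumen, varied most within HeCo. The values were 6.44 to 7.76 there (median 7.32) and 6.82 to 7.39 in wild type (median 7.20), so that 3 HeCo arrays lay above and 1 below the whole wild-type range. The difference of 0.08 (SE 0.15) was within this spread. Dnajb9, the J-domain cofactor ERdj4, had the same mean in both groups to 2 decimals (8.43), with a 95% interval of the difference from -0.15 to 0.15, and its second probe differed by -0.02. Hspa5 itself could not be followed. Its single probe (ILMN_1255561) had deposited signals of 71.2 to 106.3 and detection p-values from 0.063 to 0.696, and was detected on no array. The same held for Manf, a secreted ER protein that binds BiP, with signals of 61.7 to 85.5. Dnajb11 had no probe in the annotation used here.

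**Figure D2:**
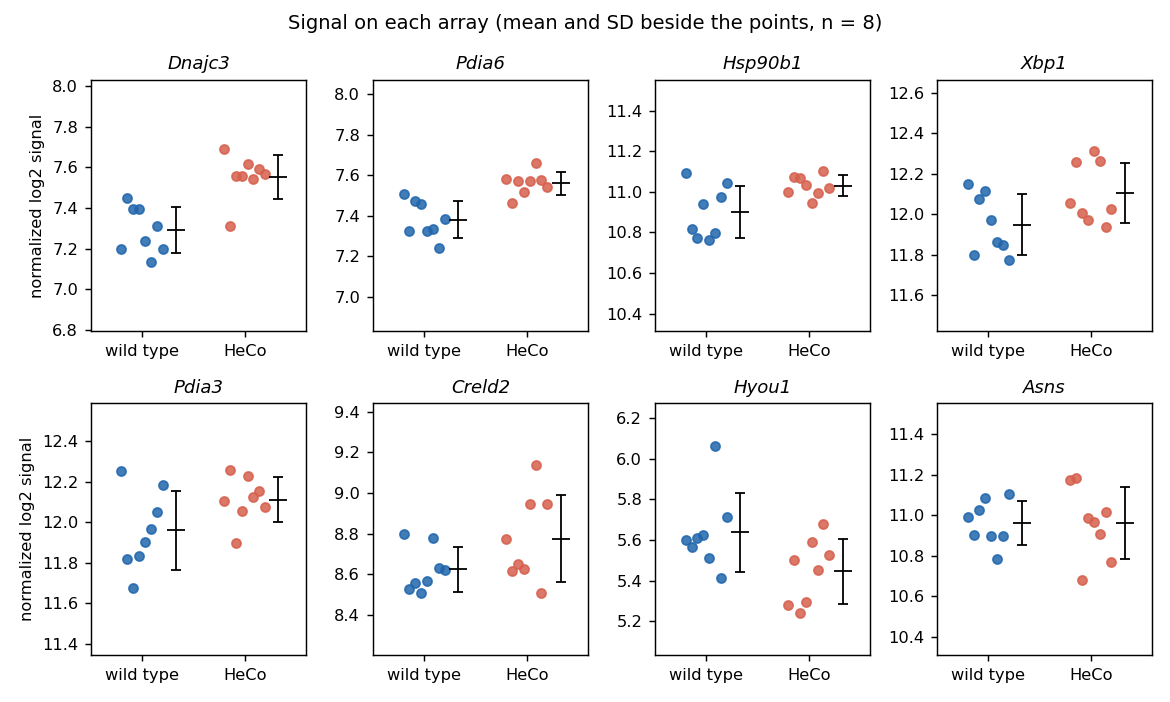
Normalized log2 signal on each array for 8 members, with wild type in blue and HeCo in red and the mean and SD (n = 8) beside the points; each panel spans the same log2 range. For Dnajc3 and Pdia6 7 of 8 HeCo arrays lie above every wild-type array, while the HeCo arrays of Asns extend both above and below the wild-type arrays.

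The disulphide isomerases, which form and rearrange disulphide bonds in folding proteins, had higher means in HeCo with 1 exception. All 5 genes of this group were measured, 4 were higher and 1 lower, and the median difference was 0.15. It was 0.10 without HeCo 14, 0.17 and 0.059 within description numbers 1 to 8 and 9 to 16, and 0.091 and 0.12 within title numbers 1 to 8 and 9 to 16. Pdia6 had lowest, median and highest values of 7.24, 7.36 and 7.51 in wild type and of 7.46, 7.57 and 7.66 in HeCo. As for Dnajc3, 7 of 8 HeCo arrays lay above the highest wild-type array, and 6 of 8 wild-type arrays lay below the lowest HeCo array. The means were 7.38 ± 0.09 and 7.56 ± 0.06 (SD, n = 8 each), a difference of 0.18 (SE 0.06, limma adjusted p = 0.612). The second Pdia6 probe differed by less, 0.10 (SE 0.07). The difference of the first probe was 0.091 and 0.27 within title numbers 1 to 8 and 9 to 16.

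Pdia3 (ERp57), the isomerase that works with calnexin and calreticulin, ran from 11.68 to 12.25 in wild type (median 11.93) and from 11.90 to 12.26 in HeCo (median 12.11). Its difference was 0.15 (SE 0.08, limma adjusted p = 0.723), with wild type 1 and wild type 12 among the highest HeCo values. Creld2, an ER-stress-induced protein with isomerase activity, differed by 0.15 (SE 0.08) and by 0.18 (SE 0.08) at its second probe. Of its HeCo arrays 3, HeCo 13, HeCo 14 and HeCo 16, lay above the wild-type maximum of 8.80. Pdia4 (ERp72) differed by 0.11 (SE 0.06), and 5 of 8 HeCo arrays exceeded its highest wild-type value of 9.89. P4hb, the protein disulphide isomerase that is also a subunit of prolyl 4-hydroxylase, did not share the pattern, with a difference of -0.02 and an interval from -0.12 to 0.09.

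Of the lectin chaperones only calreticulin was measured. Calr ran from 9.28 to 9.83 in wild type and from 9.38 to 9.81 in HeCo, overlapping almost entirely, with a difference of 0.07 (SE 0.08). The only probe of Canx, the membrane-bound lectin calnexin, was detected on no array. Its signals of 62.4 to 86.8 lay in the range of the other undetected probes.

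Of 4 genes of ER-associated degradation 3 were measured, 2 with a higher and 1 with a lower mean in HeCo. Their median difference was 0.02, and 0 were called. Syvn1, the ubiquitin ligase HRD1, differed by 0.10 (SE 0.07, limma adjusted p = 0.798), with 7 of 8 HeCo arrays above the wild-type mean but wild type 3 and wild type 4 among the highest values. Herpud1, a membrane partner of that ligase, differed by 0.02 (SE 0.06) and 0.03 at its 2 probes. Its HeCo arrays, from 11.18 to 11.33, all lay inside the wild-type range of 10.97 to 11.48. Sel1l, the adaptor of HRD1, had differences of -0.01 (SE 0.06) and 0.07 (SE 0.13) at its 2 kept probes. The mannosidase-like Edem1 was detected on no array by any of its 3 probes.

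The stress sensors were largely out of reach. Of 3 genes only Ern1 was measured, through a dim probe with values from 5.19 to 6.15 in wild type and 5.08 to 5.68 in HeCo. The difference of -0.11 (SE 0.12, limma adjusted p = 0.871) came with wild type 3 as the highest and HeCo 16 as the lowest array, and it ran from -0.17 to -0.03 with single arrays left out. Its 2 other probes were detected on no array. One Eif2ak3 probe (ILMN_1221022) passed the detection limit on 3 HeCo arrays (HeCo 7, HeCo 15 and HeCo 16) and no wild-type array, with normalized log2 signals of 4.68 to 5.27 and 4.48 to 5.02. Detection p-values of 0.0502 on HeCo 8 and wild type 2 lay just above the limit of 0.05, so this count is near the detection limit. The second Eif2ak3 probe was never detected, and the better of the 2 Atf6 probes was detected on 1 array of each group.

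Among the transcription factors, Xbp1 had the higher mean in HeCo, and Atf4 had equal means to 2 decimals. Xbp1 encodes the factor whose mRNA is cut by IRE1, which a probe of this kind does not report as such. Its values were 11.78, 11.92 and 12.15 in wild type and 11.94, 12.04 and 12.31 in HeCo. HeCo 6, HeCo 13 and HeCo 14 lay above every wild-type array, and 4 of 8 wild-type arrays lay below every HeCo array. The difference was 0.15 (SE 0.07, 95% interval 0.0025 to 0.31, limma adjusted p = 0.692). It was 0.039 and 0.27 within title numbers 1 to 8 and 9 to 16, and 0.28 and 0.028 within description numbers 1 to 8 and 9 to 16. The Atf4 probe that stands for the gene had means of 10.52 in both groups (difference 0.000710, interval -0.13 to 0.13), and the other probe differed by 0.15 (SE 0.10). Ddit3, which encodes CHOP, ran from 7.75 to 8.29 in wild type and from 7.55 to 8.21 in HeCo, with a difference of -0.06 (SE 0.11). Its second probe differed by -0.10. The single probe of Atf3 was detected on 1 array of each group.

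Targets of the ATF4 and CHOP arm showed no common direction. All 5 were measured, 3 with a higher and 2 with a lower mean in HeCo, and the median difference was 7.05e-05. Asns, the asparagine synthetase, had values from 10.78 to 11.11 in wild type and from 10.68 to 11.18 in HeCo, with equal means of 10.96. The interval of its difference ran from -0.15 to 0.15, so a change larger than this was not seen, while a smaller one in either direction remains possible. The second kept Asns probe differed by 0.04 (SE 0.08), and another Asns probe was detected on 1 array of each group. Chac1, which degrades glutathione, differed by 0.10 (SE 0.08, limma adjusted p = 0.814) and Trib3, a pseudokinase that restrains ATF4, by 0.07 (SE 0.11). Ppp1r15a (GADD34), which directs removal of the phosphate that PERK adds to the initiation factor eIF2, differed by -0.07 (SE 0.10, limma adjusted p = 0.906). Ddit4 (REDD1), an inhibitor of mTORC1, differed by -0.03 (SE 0.09). Sec61b, a subunit of the translocon, differed by -0.08 (SE 0.12) and 0.05 (SE 0.12) at its 2 probes. Without HeCo 6, the lowest array of the first probe at 9.97, its difference was 0.02.

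The promoters give a second way to sort the members, added after values were seen. The genes were chosen for the response that acts through such elements, so the shares below are no independent result. The ER stress element (ERSE), bound by ATF6 together with NF-Y and also by XBP1, was searched on both strands as CCAAT and CCACG separated by 9 free bases. RefSeq windows (GRCm38.p6) from 250 bases before to 50 after the start were given for 29 of the 32 members. Of these, 8 held an ERSE (27.6%), namely Hspa5, Hsp90b1, Dnajc3, Calr, Canx, Pdia6, Creld2 and Syvn1. Over all promoters 37 of 27025 genes held one (0.137%), and among measured genes with a window 12 of 8576 (0.140%). The stretches that hold the 9 matches, all before the start, are shown because 6 of these 8 members were measured and all 6 had a higher mean in HeCo; Hspa5 and Canx were detected on no array. They are written along the strand of the gene with the element in capitals.
Hspa5, chr2:34772005-34772063, plus strand: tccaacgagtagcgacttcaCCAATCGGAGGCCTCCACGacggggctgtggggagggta
Hsp90b1, chr10:86705513-86705676, minus strand: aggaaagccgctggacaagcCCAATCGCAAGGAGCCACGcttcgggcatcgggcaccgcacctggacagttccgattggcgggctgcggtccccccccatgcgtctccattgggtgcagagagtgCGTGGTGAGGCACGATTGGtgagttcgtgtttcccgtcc
Dnajc3, chr14:118937807-118937865, plus strand: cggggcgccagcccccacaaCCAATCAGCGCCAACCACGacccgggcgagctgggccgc
Calr, chr8:84847055-84847113, minus strand: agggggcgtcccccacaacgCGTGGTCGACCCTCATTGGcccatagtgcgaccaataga
Canx, chr11:50325780-50325838, minus strand: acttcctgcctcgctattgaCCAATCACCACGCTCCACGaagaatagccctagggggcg
Pdia6, chr12:17266471-17266529, plus strand: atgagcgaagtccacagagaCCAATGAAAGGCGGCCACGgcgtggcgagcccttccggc
Creld2, chr15:88819500-88819558, plus strand: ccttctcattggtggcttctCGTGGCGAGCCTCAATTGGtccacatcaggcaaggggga
Syvn1, chr19:6046512-6046570, plus strand: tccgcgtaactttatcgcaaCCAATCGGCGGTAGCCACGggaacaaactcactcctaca

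Hsp90b1 held 2 matches, 1 on each strand, and in Calr and Creld2 the element lies on the opposite strand of the gene. The 6 measured members with an ERSE all had a higher mean in HeCo, from 0.07 for Calr to 0.26 for Dnajc3, with a median of 0.14. The 17 measured members with a window and no ERSE were split, 9 higher and 8 lower, with a median of 7.05e-05. Hyou1, with the lowest difference of the set (-0.19), had no window, so whether it holds an ERSE is not known. The 6 other measured genes with an ERSE (Acacb, Adcy3, Alg12, Ero1b, Pan2 and Spats2l) were also split, 3 higher and 3 lower, between -0.13 for Ero1b, an ER oxidase, and 0.08 for Alg12, a mannosyltransferase of the ER. Their median was 0.00575, so the higher means were not a property of every gene with the element. No test was made of these groups, and 0 of the 12 genes with an ERSE was called. The median of the 6 members was 0.13 without HeCo 7 and HeCo 16. It was 0.08 and 0.18 within title numbers 1 to 8 and 9 to 16, with 6 of 6 higher in each. Within description numbers 1 to 8 and 9 to 16 it was 0.18 and 0.11, with 6 and 5 of 6 higher.

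**Figure D3:**
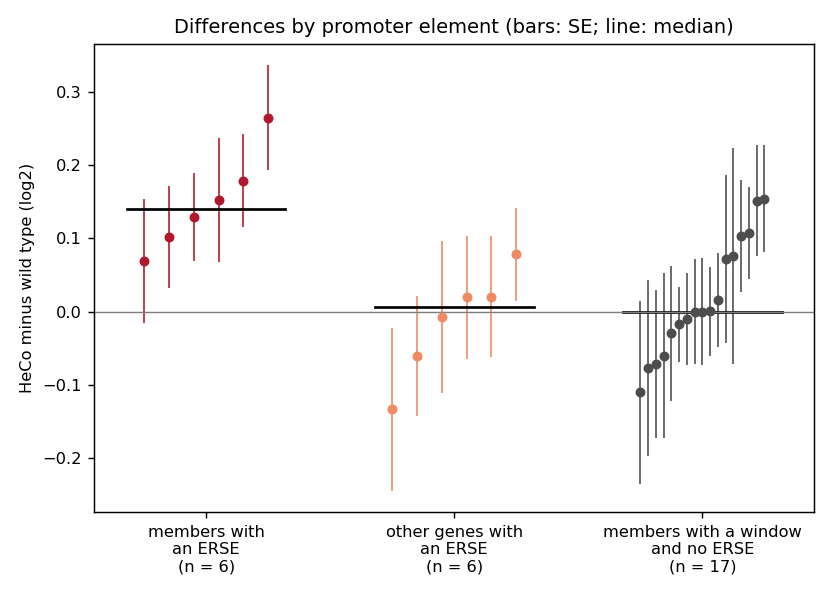
Difference between HeCo and wild type in log2 units (points, with SE as bars) for 6 measured members with an ERSE in the promoter window, 6 other measured genes with one, and 17 members with a window and no ERSE. Horizontal lines are medians, at 0.14, 0.00575 and 7.05e-05.

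Other elements were searched in the same windows. The ERSE-II (ATTGG and CCACG with 1 free base between) was found in Herpud1 and Dnajb11, and the XBP1 site TGACG followed directly by TGG in 0 of 29 members (0.714% of all genes). The C/EBP-ATF response element (CARE), through which ATF4 acts, was searched as TGATG, 1 free base and AA. It was found in 5 of 29 members (17.2%), Asns, Atf3, Chac1, Herpud1 and Trib3, against 4.51% of all genes. The matches of Asns and Chac1 are shown because these genes represent the ATF4 arm in the values above.
Asns, chr6:7693210-7693252, minus strand: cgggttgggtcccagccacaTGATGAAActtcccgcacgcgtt
Chac1, chr2:119351029-119351076, plus strand: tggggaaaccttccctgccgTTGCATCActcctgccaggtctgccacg

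The 4 measured members with a CARE had differences from 7.05e-05 (Asns, SE 0.07) to 0.10, with a median of 0.044. The sign turned for Asns under 11 and for Herpud1 under 3 of 31 alternatives, so these values show no shared direction. A short motif of this kind is frequent, and the 236 measured genes that held it had a median difference of -0.00809, with 109 higher and 127 lower.

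Other genes of the same pathways, listed by function, gave no call. Of 12 other measured isomerases and oxidases, 0 were called, 5 were higher and 7 lower, with a median of -0.00371. The smallest p-values belonged to Txndc5 (-0.14, SE 0.07) and Tmx3 (0.22, SE 0.11). Of 20 other ER chaperones and cofactors, 9 were higher and 11 lower. Among them Sec63, the J-domain protein that couples BiP to the translocon, differed by 0.24 (SE 0.06, limma adjusted p = 0.234) and was above its wild-type mean on every HeCo array. Sil1, a nucleotide exchange factor of BiP like Hyou1, differed by -0.22 (SE 0.09) with 7 of 8 HeCo arrays below it. Of 21 other degradation genes 13 were higher and 8 lower, led by Nploc4, a cofactor of the segregase p97 (0.21, SE 0.08), and Herpud2 (0.16, SE 0.11). The 29 translocon and glycosylation genes had a median of 0.00431, with Srp14 at -0.14 (SE 0.09) and Tram1 at 0.09 (SE 0.06).

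Of 20 other regulators of the stress response 9 were higher and 11 lower, and the smallest p-values belonged to Atf5 (0.16, SE 0.08) and Nupr1 (0.29, SE 0.15). Of 29 other ATF4 targets and tRNA synthetases 18 were higher and 11 lower, with a median of 0.02. The cystine transporter Slc7a11 differed by 0.24 (SE 0.09, limma adjusted p = 0.622) and the alanyl-tRNA synthetase Aars by -0.16 (SE 0.07, limma adjusted p = 0.673).

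Heat shock genes of the cytosol and mitochondria mostly had higher means. Of 17 measured, 15 were higher and 2 lower in HeCo, with a median of 0.09, and 0 were called. Hspb8, a small heat shock protein, differed by 0.23 (SE 0.09), and the Hsp90 cofactor Chordc1 by 0.13 (SE 0.06, limma adjusted p = 0.701). The median of this list was 0.08 without HeCo 7 and HeCo 16, with 14 of 17 higher. Without HeCo 14 and within description numbers 9 to 16 it was 12 of 17, within title numbers 1 to 8 it was 11 of 17, and the medians were 0.094, 0.090 and 0.084. With single arrays left out the median lay between 0.068 and 0.11.

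Markers of meninges and fibroblasts, cells that secrete much matrix, had higher means in HeCo. Of 8 such markers 7 were measured, all 7 with a higher mean in HeCo and a median difference of 0.21, and 0 called. Ogn (0.29, SE 0.12) and Pdgfra (0.23, SE 0.10) had the smallest p-values. Their summed linear signal ran from 2748 to 4881 in wild type and from 4096 to 4904 in HeCo. The list lay 0.03 to 0.35 above its wild-type mean on the HeCo arrays and between -0.43 and 0.36 on the wild-type arrays. Of 8 choroid plexus markers 4 were measured, 2 higher and 2 lower, and their summed signal ran from 16240 to 24995 in HeCo and from 16584 to 24358 in wild type. The part of these cells in the ER gene values was not tested.

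The other cell types were listed the same way, with 0 called in each list. All 4 measured markers of cortical projection neurons (6 listed) had higher means, with Tbr1 at 0.36 (SE 0.11) and Emx1 at 0.16 (SE 0.13). Their mean over the HeCo arrays was 0.18 above wild type, and 0.061 without HeCo 7 and HeCo 16, where it was 0.76 and 0.34. For the meninges markers the same means were 0.19 and 0.13. Of 5 measured radial glia markers 1 was higher and 4 lower, with Nes at -0.18 (SE 0.07) and Vim at -0.05 (SE 0.09), and Pax6 was detected on no array. Of 5 measured neuron markers 2 were higher and 3 lower, with Dcx at 0.13 (SE 0.07) and Map2 at 0.02 (SE 0.06). Endothelium (3 higher, 2 lower, with Cdh5 at 0.17, SE 0.11, and Tek at 0.03, SE 0.08) and microglia (4 higher, 2 lower, with C1qb at 0.12, SE 0.13, and Csf1r at 0.07, SE 0.10) were split. Red blood cell markers were 1 higher and 4 lower, with Slc4a1 at -0.21 (SE 0.13) and Hbb-bt at -0.04 (SE 0.05). Regional genes of the brain behind the telencephalon (10 measured) were all lower, with a median of -0.73 that includes HeCo 7 and HeCo 16, and Slc6a3 at -0.74 (SE 0.34) and Hoxa2 at -0.65 (SE 0.31). The mean of this list over the HeCo arrays was -0.73 relative to wild type, and -0.15 without HeCo 7 and HeCo 16. Single wild-type arrays lay between -0.51 and 0.40. In the choroid plexus list Clic6 was at 0.20 (SE 0.12) and Ttr at 0.10 (SE 0.09). Their part in the ER gene values was not tested.

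From array to array, few pairs of members varied together. Each of the 24 measured members was used in turn as a reference in a limma fit with a genotype term, and a gene was called where its slope on the reference had an adjusted p under 0.05. The reference planned for chaperones, Hspa5, had no measured probe. Of 552 ordered pairs of members 7 were called, while 1.6% of all pairs of a member with any gene were called (4090 of 254952), so that the count of 1.27% is no result about the members. The count depended on the scaling: with arrays scaled to 1 median 191 pairs (34.6%) were called, against 29.3% of all pairs of a member with any gene. With Asns as the reference 0 of 23 members and 1.39% of all genes were called. The slopes on Asns (log2 per log2) were highest for Trib3 (0.77, SE 0.39), Chac1 (0.66, SE 0.24) and Ern1 (0.54, SE 0.45) and lowest for Ddit3 (-1.09, SE 0.34), Sdf2l1 (-1.06, SE 0.49) and Sec61b (-1.06, SE 0.38). After removing the genotype means, the correlation of the 276 pairs had a median r of 0.07 and ran from -0.81 to 0.75.

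**Figure D4:**
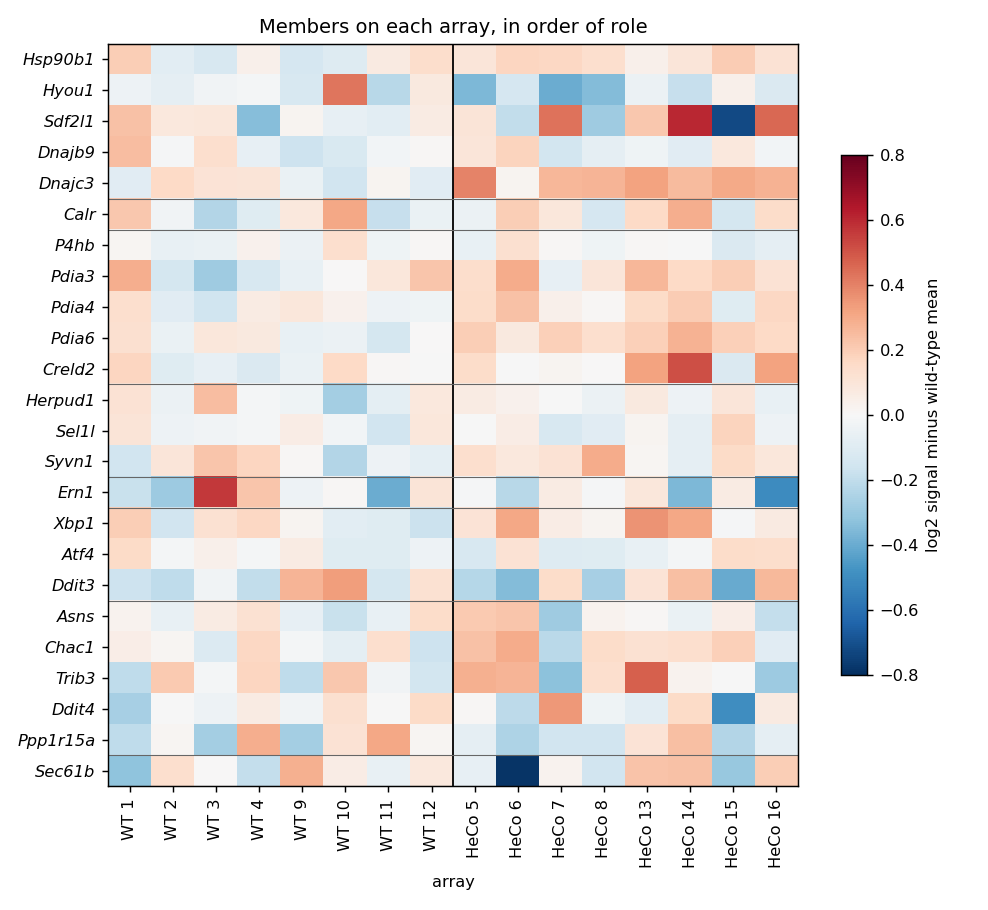
Normalized log2 signal of the 24 measured members on each of the 16 arrays (WT, wild type) as the difference from the wild-type mean of the gene, red above and blue below it, in order of role. Dnajc3 and Pdia6 are above 0 on all 8 HeCo arrays, whereas Sdf2l1, Ddit3, Ddit4 and Sec61b vary in both directions within HeCo.

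The pairs below were picked for their slopes in these fits, so their correlations are a description and carry no p. Of the 7 calls 4 involved Ddit3. Ddit3 varied with Sec61b, with Pearson's r of 0.76 and Spearman's rho of 0.76 over 16 arrays. The correlation was 0.76 without wild type 10 and wild type 9, the arrays farthest from the median of Ddit3. It was 0.62 in wild type and 0.82 in HeCo, 0.78 and 0.77 within the description sets and 0.58 and 0.87 within the title sets (n = 8 each). Ddit3 as a reference called 14.5% of all genes and Sec61b 6.17%, so many genes followed them. The fit on Ddit3 also called Sdf2l1 (r = 0.66, rho = 0.53). This correlation was 0.84 without wild type 10 and wild type 9, 0.92 in HeCo and 0.04 in wild type, 0.77 and 0.57 within the description sets and 0.74 and 0.76 within the title sets. Ddit4 was the third gene called on Ddit3 (r = 0.65, rho = 0.61), with 0.69 without the same arrays, 0.74 in HeCo and 0.44 in wild type, 0.70 and 0.69 within the description sets and 0.71 and 0.82 within the title sets. In the opposite direction, fits on Ddit4 and Sdf2l1 called 1.33% and 2.64% of all genes and not Ddit3.

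Creld2 and Sdf2l1, both of the ER lumen, had r = 0.71 and rho = 0.73, and r = 0.61 without HeCo 13 and HeCo 14. The correlation was 0.80 in HeCo and 0.41 in wild type, 0.85 and 0.60 within the description sets and 0.46 and 0.84 within the title sets. The fit on Creld2 called 4.75% of all genes, Sdf2l1 among them. In reverse, the fit on Sdf2l1 did not call Creld2 (limma adjusted p = 0.0604).

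Calr and Syvn1 ran in opposite directions, with r = -0.66 and rho = -0.65; their within-genotype correlation was the lowest of the 276. The correlation was -0.87 in HeCo and -0.79 in wild type. Within description numbers 1 to 8 r was -0.25, within 9 to 16 it was -0.93, and the title sets gave -0.81 and -0.49, while without wild type 10 and HeCo 14 it was -0.50. The fits on Calr and Syvn1 called 2.65% and 2.73% of all genes. Asns and Chac1, the ATF4 targets, had r = 0.62 and rho = 0.56, without a call over all genes (limma adjusted p = 0.156). On HeCo 7 and HeCo 16 both genes had their lowest HeCo values, and without these arrays r was 0.42, so the relation rests on them. It was 0.96 in HeCo and -0.03 in wild type, and 0.36 and 0.82 within the description sets and 0.86 and 0.14 within the title sets. Asns and Ddit3, both targets of ATF4, ran in opposite directions (r = -0.64, rho = -0.67). Here r was -0.58 without HeCo 7 and HeCo 16, -0.76 in HeCo and -0.42 in wild type, -0.53 and -0.74 within the description sets and -0.80 and -0.51 within the title sets. The mean deposited signal of the arrays correlated with Sdf2l1 at -0.52 and with Ddit4 at -0.65, and its part in these pairs was not tested.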

How the data were processed

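Signals of 16 single-colour Illumina bead arrays were analysed. The authors deposited intensities on a linear scale with no visible normalization and a detection p-value per probe and array (a multiple of 1/936). A second deposited table holds quantile-normalized intensities of the same arrays, matched to within 0.00474 log2. GenomeStudio is named, with no version, per the submitters' processing notes. In R 4.3.3 with limma 3.58.1, signals were corrected and normalized with neqc (offset 16) to the log2 scale. A probe was kept if 8 or more arrays had a detection p below 0.05 (18532 probes). Probes were named through the platform annotation and Entrez identifiers, and the brightest stood for its gene (10624 genes). The limma model, moderated with a trend on mean level, compared HeCo with wild type, two-sided, with Benjamini-Hochberg adjustment over all genes or all probes at 0.05. A difference is HeCo minus wild type, log2. Array number limits precision, and the offset shrinks differences of dim genes. Motifs were counted in RefSeq windows. The code was tested on simulated data. Plots used Python 3.11.15 with matplotlib 3.10.9.

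The members and lists were chosen with earlier results of these data known. By rule, full values were given for the 2 members of each role with the smallest p, for Hspa5 and for Asns, with the remaining members in brief. From other lists the 2 genes with the smallest p were named, and from the Asns fit the 3 highest and 3 lowest slopes. The fits on each member in turn, planned for Hspa5, and the differences by promoter element were added after values were seen.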

Additional observations from a re-analysis of the deposited data

Results flagged for a closer look

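In 4 of 48 groups of 8 arrays (24 members, 2 genotypes) 1 array lay apart from the rest of its group, its gap to the nearest array being more than 0.526 of the group's range. Chance gives about 1 such group in 20. Wild type 10 was the highest of its group for Hyou1 (6.06, the next 5.71) and for P4hb (11.99, the next 11.89). HeCo 6 was the lowest HeCo array for Dnajc3 (7.31, the next 7.54), and without it the difference was 0.30 (limma adjusted p = 0.215; the 31 alternatives gave 0.215 to 0.999). Wild type 1 was the lowest wild-type array for Ddit4 (10.12, the next 10.34).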

How the results depend on the processing

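No member was called over genes or over probes under any alternative tried: other background corrections and scalings, the authors' normalized values, stricter and no filters, no trend, array weights, a block, title and description sets, and each array left out. Of 14 named members, the differences of Hsp90b1, Dnajc3, Pdia3, Pdia6, Syvn1, Ern1, Xbp1, Ddit3, Chac1 and Ppp1r15a kept their sign under all 31 alternatives, with Dnajc3 between 0.17 and 0.36. Signs turned for Calr (-0.032 within description numbers 9 to 16), Herpud1 (-0.011 within description and -0.061 within title numbers 1 to 8), Asns (-0.011 and -0.00531 within the higher description and title numbers) and Sec61b (0.084 within description numbers 9 to 16). With arrays left out, Herpud1 ran from -0.023 to 0.051, Asns from -0.032 to 0.040 and Sec61b from -0.12 to 0.024. The cause was not tested. Scaling arrays to 1 median raised the median difference of all genes from -0.00515 to 0.05, with 68.2% of genes higher in place of 48.1%, and 19 members higher and 5 lower. Under it 13 members (56.5%, against 52.2% of all genes) varied with Asns and 191 member pairs were called (34.6%, against 29.3% of all pairs of a member with any gene); the cause was not tested. With the mean of a gene's probes these counts were 3 (13.0%, against 6.25%) and 12 (2.17%, against 1.75%). Within the 2 description sets 0 and 0 pairs were called (all pairs 0.251% and 0.0165%), and within the 2 title sets 2 and 11 (0.362% and 1.99%, against 0.539% and 1.27%), with 8 arrays each. With arrays left out it was 3 to 17, the lowest without HeCo 15 (0.543%, against 1.03%; 4 without HeCo 14, 0.725% against 0.899%) and the highest without wild type 1 (3.08%, against 1.97%). The fit on Hspa5 could not be made. No paired analysis was possible because the groups share no replicate number. Signal over background limits the dim genes Hyou1, Ern1 and Trib3.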
